A study of Danio rerio with 6 samples.

Results

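The genes described here are the 2 corticosteroid receptors of the zebrafish (Danio rerio), the enzyme that inactivates their ligand and 6 further genes. The 6 are the response genes fkbp5 and tsc22d3, the kinase genes sgk1, sgk2a and sgk2b, and the kinase substrate gene nedd4l. Whether any of the 6 responds to corticosteroids here was not tested. All were measured in the adult mesonephros, the kidney of the adult fish. All samples came from adult fish of the line Tg(slc12a3:mCherry), in which the promoter of slc12a3, the thiazide-sensitive sodium-chloride cotransporter gene, drives a red reporter in the distal late (DL) segment. There were 3 libraries of hand-dissected DL segments, labelled mCh+, and they were set against 3 of the remaining mesonephros, labelled mCh-. The members were found by gene symbol, and each of the 9 symbols matched 1 of the 31953 genes in the count table. They were nr3c1 (ENSDARG00000025032), nr3c2 (ENSDARG00000102082), hsd11b2 (ENSDARG00000001975), fkbp5 (ENSDARG00000028396), tsc22d3 (ENSDARG00000075666), sgk1 (ENSDARG00000025522), sgk2a (ENSDARG00000063370, listed as SGK2), sgk2b (ENSDARG00000006598) and nedd4l (ENSDARG00000060006). All 9 had counts in all 6 libraries and passed the filter on low counts, after which 17083 genes were tested. Whether the libraries came from separate fish is not stated in the labels, and the p-values then measure only how far these samples spread, which may be technical.

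Corticosteroids act through a pair of nuclear receptors that sit in the cytoplasm with heat-shock proteins and move to the nucleus when they bind hormone. Cortisol is the main ligand of both receptors in teleost fish, which make little or no aldosterone. In the mammalian distal nephron, the mineralocorticoid receptor is shielded from cortisol by the product of HSD11B2, and its best known target, the kinase SGK1, phosphorylates the ubiquitin ligase NEDD4L and so keeps sodium transporters at the cell surface. FKBP5 and TSC22D3 are induced by glucocorticoids in many mammalian tissues.

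Total counts ranged from 9320756 to 22776825 per library. In DL replicate 1 and rest replicate 3, the 20 most abundant genes took 81.5% of the counts, against 37.0% to 56.8% in the other libraries, and the TMM scaling factors of both libraries were low (0.520 and 0.534, against 1.14 to 1.80). The slc12a3 gene (listed as SLC12A3), from which the reporter is driven, had 251, 905 and 32.9 CPM (counts scaled to a common library size by TMM, a method that discounts a few dominant genes) in DL replicates 1 to 3, against 41.9, 30.4 and 43.0 CPM in the 3 rest libraries. For the gene that defines the segment, the library labelled DL replicate 3 was therefore no higher than the remainder of the kidney. Summed over 18 genes matched from a distal tubule list, its level was 796 CPM, against 2427 and 3828 CPM in DL replicates 1 and 2. The sum was 284 to 785 CPM in the rest libraries. The gene cdh17 alone gave 1666, 2379 and 560 CPM of this sum in DL replicates 1 to 3, and 434 CPM in rest replicate 1. In the DL libraries the sum therefore mostly follows this 1 gene. Under TMM scaling, all 3 DL libraries lay above all 3 rest libraries for 5 of the 13 tested genes of this list, cdh17 among them (6.82% of all tested genes). Fold changes were positive for 11 of the 13 and negative for 2. The list was chosen with earlier results of these data known, so these counts are no independent test. DL replicate 3 also held the most RNA of hsp70l, an inducible heat-shock gene, with 5542 CPM there and 395 and 581 CPM in DL replicates 1 and 2, set against 611 to 2797 CPM in rest libraries. For the genes named below, a log2 fold change is also given without DL replicate 3 where that moves it by over 1.5 times.

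None of the 9 genes passed the test between DL segments and the remaining mesonephros. By edgeR's quasi-likelihood test with Benjamini-Hochberg adjustment over all genes, 0 of 9 were higher, where 0.0644% of all tested genes were, and 0 of 9 were lower, where 0% were. DESeq2 called 0 of the 9 higher (1.36% of all tested genes) and 0 lower (0.34%), and limma-voom called 0 higher (0.0351%) and 0 lower (0%). With all 6 libraries, an unadjusted p under 0.05 was likewise reached by 0 of 9 in either direction, beside 4.09% of all tested genes higher and 2.73% lower. For 0 of the 9 did the 3 DL libraries all lie above the 3 rest libraries (6.82% of all tested genes), and for 0 did they all lie below (6.28%). Fold changes were positive for 6 genes and negative for 3, with a median log2 value of 0.24, against a median of -0.07 and 46.5% positive over all tested genes. In these bulk samples, fewer cells of a type and less RNA per cell cannot be told apart.

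The precision limits what these counts can show. The 95% interval of the log2 fold change crossed 0 for all 9 genes. It reached a doubling for 6 of them and a halving for 4, so that a change of that size could not be told from none with these libraries. Without DL replicate 3, edgeR called 51 of all genes higher (0.275%) and 2 lower (0.0108%), with still 0 of the 9 in either direction. By an unadjusted p under 0.05, 2 of the 9 were then higher, beside 4.33% of all tested genes, and 0 were lower, beside 5.62%. These were sgk2a (unadjusted p = 0.0448, adjusted p = 0.49 by edgeR) and hsd11b2 (0.0485 and 0.497).

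**Figure D1:**
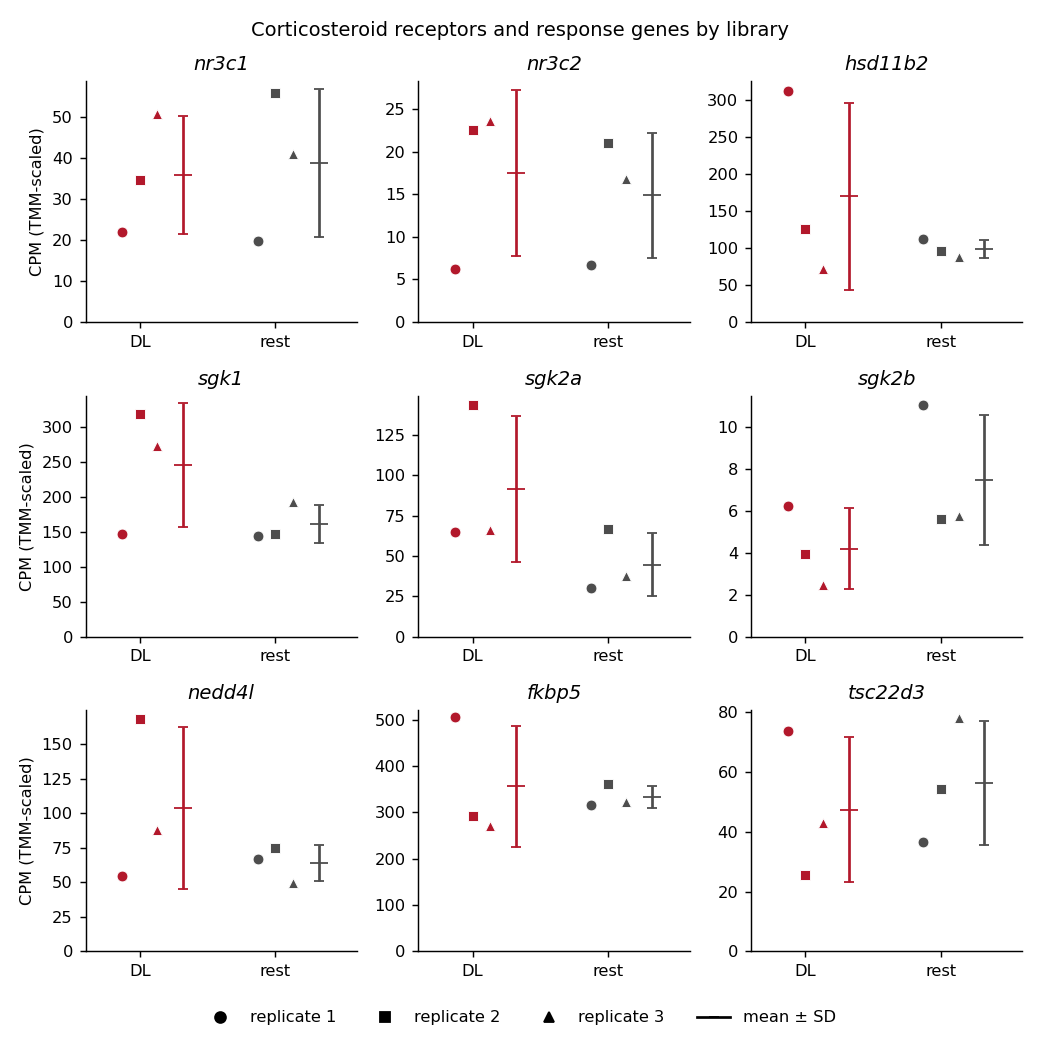
Level of each of the 9 genes in CPM of the TMM-scaled library (y axis, from 0, its own scale per gene) in the 3 DL libraries (red) and the 3 rest libraries (grey); symbols mark replicates 1 to 3, numbered in deposition order, and bars are mean ± SD. The groups overlap in all 9 panels, and the spread is wide in DL for hsd11b2, from 71.2 to 313 CPM.

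**Figure D2:**
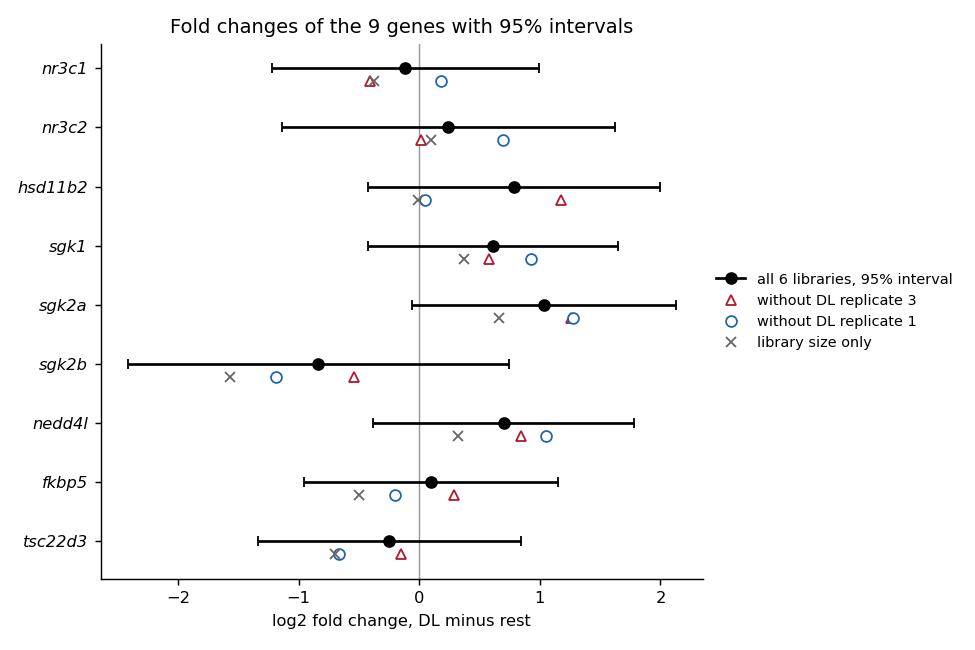
Log2 fold change of each gene, DL minus rest (x axis), with all 6 libraries and its 95% interval (black), and without DL replicate 3, without DL replicate 1 or scaled by library size only (open and crossed symbols). All 9 intervals cross 0, and sgk2a comes closest to excluding it, with an interval of -0.06 to 2.13.

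Both receptors were present in DL segments and in the rest, at overlapping levels. The glucocorticoid receptor gene nr3c1 had 22.1, 34.6 and 50.8 CPM in DL replicates 1 to 3, against 19.9, 55.8 and 41.0 CPM in rest replicates 1 to 3. The lowest and the highest of the 6 values were both in the rest, so that the rest libraries spanned the whole DL range. Its log2 fold change was -0.12 ± 0.51 (SE; 95% interval -1.22 to 0.99; edgeR adjusted p = 0.999). The sign of this value turned without DL replicate 1 (0.18) or rest replicate 2 (0.25), and when DL replicate 1 and rest replicate 3 were both left out (0.19), and it was -0.41 without DL replicate 3.

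The mineralocorticoid receptor gene nr3c2 had 6.25, 22.6 and 23.6 CPM in DL replicates 1 to 3, against 6.73, 21.1 and 16.8 CPM in rest replicates 1 to 3. One library of each group was low, and the other 4 lay close together. Its log2 fold change was 0.24 ± 0.63 (95% interval -1.14 to 1.62; edgeR adjusted p = 0.999), 0.02 without DL replicate 3 but 0.69 with DL replicate 1 left out, and it turned to -0.10 without rest replicate 1. The low value in DL replicate 1 rested on 45 reads, the smallest count of this gene among the 6 libraries.

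The balance of the receptors can be read within a library, where scaling has no part. Counts of nr3c2 per count of nr3c1, with 1 added to each, were 0.288, 0.652 and 0.467 in DL replicates 1 to 3, against 0.339, 0.378 and 0.412 in rest replicates 1 to 3. The DL libraries held both the lowest and the highest of these ratios, while the rest libraries lay close together. On the log2 scale the mean was -1.17 ± 0.59 in DL and -1.41 ± 0.14 in the rest (SD, n = 3 each), a difference of 0.24 (exact two-sided permutation test, p = 0.6, where 3 against 3 libraries allow no p below 0.1). Without DL replicate 1 the difference was 0.56 and both remaining DL values lay above all rest values (exact permutation p = 0.1, the smallest this split allows), and without DL replicate 2 it was -0.04.

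**Figure D3:**
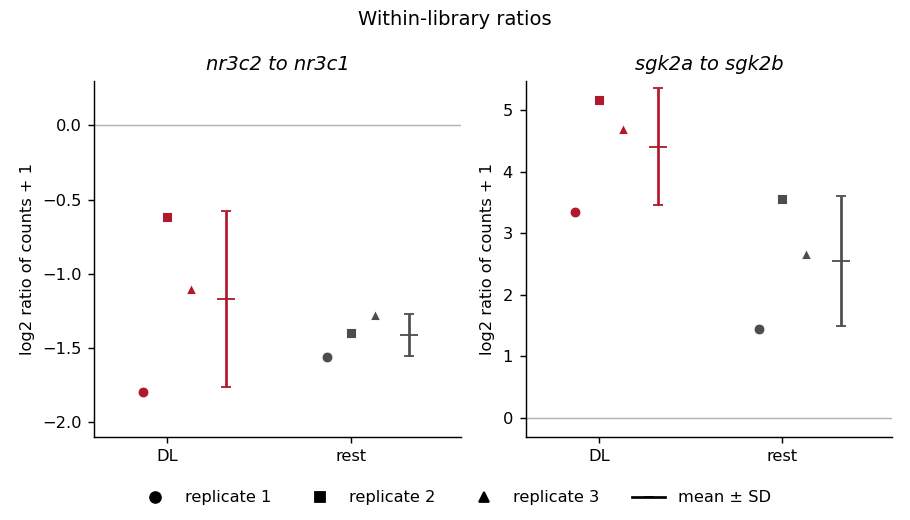
Log2 ratio of counts + 1 (y axis) within each library for nr3c2 over nr3c1 (left) and sgk2a over sgk2b (right), in DL (red) and rest (grey) libraries, with mean ± SD; 0 is an equal count, which gene length also sets. The receptor ratio is wider spread in DL than in the rest, and the sgk2 ratio lies higher in DL at 10.1 to 36.1 counts per count, against 2.71 to 11.7 in the rest, with 1 overlapping pair of libraries.

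The gene hsd11b2, whose product oxidises cortisol to inactive cortisone, had the widest spread of the 9 genes among DL libraries under TMM scaling. It had 313, 126 and 71.2 CPM in DL replicates 1 to 3, against 113, 95.8 and 88.1 CPM in rest replicates 1 to 3. DL replicates 1 and 2 lay above all rest libraries and DL replicate 3 below all of them. The highest DL value was 4.39 times the lowest, and the same ratio in the rest was 1.28. The log2 fold change was 0.78 ± 0.55 (95% interval -0.43 to 1.99; edgeR adjusted p = 0.941). It was 1.18 (edgeR adjusted p = 0.497) without DL replicate 3 and 0.04 without DL replicate 1. With DL replicate 1 and rest replicate 3 both left out it was -0.06. Scaled by library size only it was -0.01, and that scaling moved the median over all genes to -0.50. Levels were then 162, 147 and 80.8 CPM in DL replicates 1 to 3. Rest replicates 1 to 3 had 202, 144 and 46.8 CPM, the wider spread.

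Next to hsd11b2 in cortisol breakdown stands hsd20b2, whose product reduces cortisone further in zebrafish. It had 85.2, 105 and 58.8 CPM in DL replicates 1 to 3, against 16.6, 8.83 and 10.7 CPM in rest replicates 1 to 3. Every DL library, replicate 3 included, was above every rest library by a wide margin. It averaged 83.2 ± 23.4 CPM over the 3 DL libraries and 12.0 ± 4.04 CPM over the 3 rest libraries (SD), with a log2 fold change of 2.79 ± 0.47 (95% interval 1.75 to 3.82). By edgeR this missed the threshold over all genes (adjusted p = 0.0675), as it did by limma-voom (0.0544), whereas DESeq2 called it higher (adjusted p = 1.5e-05), as did edgeR without DL replicate 3 (3.02, adjusted p = 0.0455) and without a filter on low counts (adjusted p = 0.0068). Over all alternatives its log2 fold change stayed between 2.26 and 3.10, with adjusted p from 2.75e-06 to 0.999. A list of enzymes that make, activate or inactivate steroids outside the gland had 11 tested genes. Of these, hsd20b2 alone had an unadjusted p under 0.05, beside 4.09% of all tested genes higher and 2.73% lower. Under TMM scaling, all DL libraries lay above all rest libraries for 2 of the 11 (6.82% of all tested genes), hsd20b2 and sult2st3. With library size only, the groups overlapped for sult2st3. The list had 7 positive and 4 negative fold changes with a median log2 value of 0.51. Of it, edgeR called 0 (0.0644% of all tested genes higher, 0% lower) and DESeq2 1 higher (1.36%).

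The 2 classical glucocorticoid response genes, fkbp5 and tsc22d3, had fold changes near 0. The gene fkbp5, a cochaperone that lowers hormone binding by the glucocorticoid receptor in mammals, had 506, 291 and 271 CPM in DL replicates 1 to 3, against 316, 361 and 323 CPM in rest replicates 1 to 3. Under TMM scaling, DL replicate 1 was the highest of the 6 libraries and the other 2 DL libraries were the lowest. Scaled by library size only, fkbp5 had 263 CPM in DL replicate 1 and 338 and 308 CPM in DL replicates 2 and 3. Its log2 fold change was 0.10 ± 0.48 (95% interval -0.95 to 1.15; edgeR adjusted p = 0.999), rising to 0.29 without DL replicate 3 and turning to -0.20 without DL replicate 1, to -0.25 with DL replicate 1 and rest replicate 3 both left out and to -0.50 with library size only, a value equal to the median of all genes under that scaling.

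The gene tsc22d3, which encodes the glucocorticoid-induced leucine zipper, an anti-inflammatory protein in mammals, had 73.6, 25.6 and 43.0 CPM in DL replicates 1 to 3, against 36.7, 54.5 and 77.9 CPM in rest replicates 1 to 3. High and low libraries occurred in both groups. The log2 fold change was -0.25 ± 0.50 (95% interval -1.34 to 0.84; edgeR adjusted p = 0.999), with -0.15 for DL replicates 1 and 2 alone against the rest, and it turned to 0.06 without DL replicate 2 and to 0.07 without rest replicate 3. DL replicate 3, with the highest hsp70l level, was not the highest library for fkbp5 or tsc22d3, but it was for the summed list that follows.

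Of 18 further tested genes that glucocorticoids induce in vertebrates, edgeR called 0 in either direction, limma-voom 0 and DESeq2 1 higher (1.36% of all tested genes), and 1 was higher by an unadjusted p under 0.05 (4.09%). The fold changes were positive for 8 and negative for 10, with a median log2 value of -0.12. The 1 gene was pdk4 (listed as PDK4), a kinase that blocks pyruvate dehydrogenase and is also induced by fasting and fatty acids. It had 149, 172 and 87.0 CPM in DL replicates 1 to 3, against 42.2, 27.2 and 34.7 CPM in rest replicates 1 to 3, with no overlap. Its log2 fold change was 1.97 ± 0.46 (95% interval 0.97 to 2.97), with an adjusted p of 0.187 by edgeR and 0.00457 by DESeq2. The transcriptional repressor gene zbtb16b had a log2 fold change of 1.03 ± 0.51 (edgeR adjusted p = 0.786), and its groups overlapped. All DL libraries lay above all rest libraries for 2 of the 18 genes (6.82% of all tested genes), pdk4 and tsc22d1. For tsc22d1 the lowest DL library had 53.4 CPM and the highest rest library 50.7 CPM under TMM scaling, and with library size only its groups overlapped. Summed over the 18 genes, the level was highest in DL replicate 3, at 2583 CPM. It was 1060 and 1746 CPM in DL replicates 1 and 2, and 1296 to 2229 CPM in the rest libraries. A few abundant genes carried most of the sum in DL replicate 3. There dusp1, nfkbiab, nfkbiaa and cebpb had 611, 537, 314 and 280 CPM. Both pdk4 and pck1 were lower in DL replicate 3 than in DL replicates 1 and 2. The cause was not tested.

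**Figure D4:**
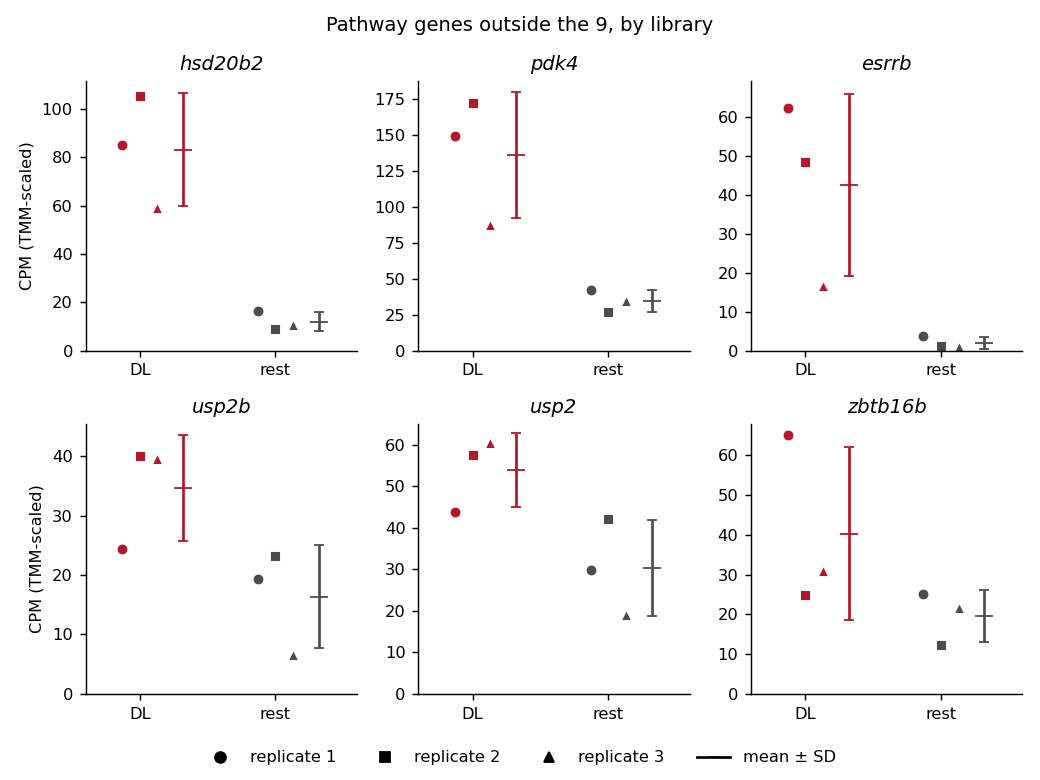
Level in CPM of the TMM-scaled library (y axis, from 0, own scale per gene) of 6 pathway genes outside the 9, in DL (red) and rest (grey) libraries, with mean ± SD. On this scale all 3 DL libraries lie above all 3 rest libraries for hsd20b2, pdk4, esrrb, usp2b and usp2 (6.82% of all tested genes), and the groups overlap for zbtb16b. Scaled by library size only, the groups overlap for usp2b and usp2 as well. These genes were picked from their lists by smallest p in the same data, so their separation is no test of the pathway.

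Among the kinases, sgk2a had the largest positive fold change of the 9 genes and sgk2b the largest negative one. The gene sgk1 had 148, 319 and 273 CPM in DL replicates 1 to 3, against 145, 147 and 192 CPM in rest replicates 1 to 3. DL replicates 2 and 3 lay above all rest libraries, while DL replicate 1 lay among them. For sgk1 the log2 fold change was 0.61 ± 0.47 (95% interval -0.42 to 1.64; edgeR adjusted p = 0.96), 0.92 without DL replicate 1 and 1.03 with DL replicate 1 and rest replicate 3 both left out, with no call. It stayed positive under all 16 alternatives, between 0.37 and 1.03.

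The gene sgk2a, 1 of a pair of zebrafish copies related to mammalian SGK2, had 64.6, 143 and 66.2 CPM in DL replicates 1 to 3, against 30.1, 66.6 and 37.3 CPM in rest replicates 1 to 3. Rest replicate 2 alone reached the DL range, just above DL replicates 1 and 3. The mean was 91.4 ± 45.0 CPM over the 3 DL libraries and 44.6 ± 19.3 CPM over the 3 rest libraries (SD). This gave a log2 fold change of 1.03 ± 0.50 (95% interval -0.06 to 2.13; unadjusted p = 0.0616 and adjusted p = 0.768 by edgeR), larger than that of 88.7% of all tested genes. It was 0.56 without DL replicate 2 and 1.45 without rest replicate 2, positive under all 16 alternatives and called under none. By edgeR its unadjusted p was 0.037 without DL replicate 1 (3.6% of all tested genes higher by p under 0.05). It was 0.031 without rest replicate 2 (3.1%), and 0.0499 without a filter on low counts. Other settings gave larger values. These were 0.33 without DL replicate 2, 0.16 without rest replicate 1, 0.15 without rest replicate 3 and 0.47 with library size only.

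The other copy, sgk2b, had 6.25, 3.93 and 2.46 CPM in DL replicates 1 to 3, against 11.1, 5.63 and 5.76 CPM in rest replicates 1 to 3. DL replicates 2 and 3 lay below all rest libraries, and DL replicate 1 lay among them. These levels rested on 26 to 104 reads per DL library and 34 to 364 per rest library, the fewest reads of the 9 genes. A log2 fold change of -0.84 ± 0.72 (95% interval -2.42 to 0.74; edgeR adjusted p = 0.981) resulted, with -0.54 without DL replicate 3 and -1.37 with DL replicate 1 and rest replicate 3 both left out. It stayed negative under all 16 alternatives.

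The pair had fold changes of opposite sign, and their ratio within a library was compared after these values were seen. Counts of sgk2a per count of sgk2b, with 1 added to each, were 10.1, 36.1 and 26.0 in DL replicates 1 to 3, against 2.71, 11.7 and 6.31 in rest replicates 1 to 3. Rest replicate 2 lay above DL replicate 1, and every other DL library was above every rest library. The log2 ratio was 4.40 ± 0.95 in DL and 2.55 ± 1.06 in the rest (SD, n = 3 each), a difference of 1.86 (exact two-sided permutation test, p = 0.2, with 0.1 the smallest possible). The difference remained positive when any 1 library was left out, from 1.30 to 2.39. Since the ratio was formed once the opposite signs were known, neither this range nor the p is an independent test. As related copies, these genes may share reads, depending on how the authors counted.

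The gene nedd4l, the ubiquitin ligase downstream of SGK1 in mammals, had 54.3, 169 and 87.9 CPM in DL replicates 1 to 3, against 66.7, 75.1 and 49.6 CPM in rest replicates 1 to 3. DL replicates 2 and 3 were above all rest libraries and DL replicate 1 was not. For nedd4l the log2 fold change was 0.70 ± 0.49 (95% interval -0.38 to 1.78; edgeR adjusted p = 0.939), 1.05 with DL replicate 1 left out but 0.16 without DL replicate 2. Under TMM scaling, replicate 2 was the highest of the 3 DL libraries for sgk1, sgk2a and nedd4l and also for slc12a3. Replicate 1 was the highest for hsd11b2, fkbp5, tsc22d3 and sgk2b, and replicate 3 for nr3c1 and nr3c2. With library size only, replicate 1 stayed the highest for hsd11b2 alone. Replicate 2 was then the highest for fkbp5 and sgk2b, and replicate 3 for tsc22d3. The relative spread of TMM-scaled levels (SD over mean) was larger in DL than in the rest for 8 of the 9 genes, and for 53.5% of all tested genes.

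Around the kinases, a list of 18 tested genes covered the activators of SGK1, the third SGK gene, relatives and adaptors of NEDD4L, deubiquitinases and binding partners. Of these, edgeR, DESeq2 and limma-voom called 0, where each called at most 1.36% of all tested genes in either direction. An unadjusted p under 0.05 was reached by 0, beside 4.09% of all tested genes higher and 2.73% lower. There were 12 positive and 6 negative fold changes, with a median log2 value of 0.21. The 2 without overlap between groups under TMM scaling, both with DL above (6.82% of all tested genes), were copies of the deubiquitinase gene USP2, which aldosterone induces in the mouse kidney. The copy usp2b had 24.3, 40.0 and 39.5 CPM in DL replicates 1 to 3, against 19.3, 23.2 and 6.61 CPM in rest replicates 1 to 3, and the copy listed as USP2 had 43.9, 57.5 and 60.4 CPM, against 29.9, 42.2 and 19.0 CPM. In both genes the lowest DL library, replicate 1, was only just above the highest rest library, replicate 2. Log2 fold changes were 1.07 ± 0.53 for usp2b and 0.83 ± 0.44 for USP2, with edgeR adjusted p-values of 0.786 and 0.825. Scaled by library size only, DL replicate 1 lay below rest replicates 1 and 2 for both genes. The log2 fold changes were then 0.51 for usp2b and 0.31 for USP2.

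No chaperone gene of the receptors passed the test. Of 12 tested genes of this list, edgeR, DESeq2 and limma-voom called 0, where each called at most 1.36% of all tested genes in either direction. An unadjusted p under 0.05 was reached by 0, beside 4.09% of all tested genes higher and 2.73% lower. There were 7 positive and 5 negative values, with a median log2 fold change of 0.11. The cytosolic chaperone gene hsp90ab1 (listed as HSP90AB1) averaged 1510 ± 222 CPM over the 3 DL libraries and 1347 ± 40.8 CPM over the 3 rest libraries (SD), with a log2 fold change of 0.16 ± 0.57, and 0.081 without DL replicate 3. The cochaperone gene fkbp4 (listed as FKBP4), which competes with FKBP5 on the receptor in mammals, had 39.9, 51.9 and 68.7 CPM in DL replicates 1 to 3, against 53.0, 29.1 and 41.8 CPM in rest replicates 1 to 3. Its log2 fold change was 0.37 ± 0.43 (edgeR adjusted p = 0.999), and 0.19 without DL replicate 3, and with library size only those of hsp90ab1 and fkbp4 turned to -0.26 and -0.02. The cyclophilin gene ppid (listed as PPID) had the smallest unadjusted p of the list (0.0901), with a log2 fold change of -1.31 ± 0.71 that was -1.96 without DL replicate 3 and turned to 0.05 with DL replicate 1 and rest replicate 3 both left out.

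Other members of the steroid receptor class included genes with larger differences than either corticosteroid receptor. Of 8 tested, edgeR and limma-voom called 0, DESeq2 called 1 higher (1.36% of all tested genes) and 1 lower (0.34%), and 1 was higher (4.09%) and 2 lower (2.73%) by an unadjusted p under 0.05. The orphan receptor gene esrrb, which binds no known natural hormone, had 62.5, 48.6 and 16.7 CPM in DL replicates 1 to 3, against 3.80, 1.19 and 1.02 CPM in rest replicates 1 to 3. Its log2 fold change of 4.35 ± 0.73 had an adjusted p of 0.0675 by edgeR and 2.61e-07 by DESeq2, and 0.0294 by edgeR without DL replicate 3. By limma-voom the adjusted p was 0.163. Over all alternatives the log2 fold change of esrrb stayed between 3.54 and 5.25, with adjusted p from 2.83e-08 to 0.806. Its relative ESRRA, a regulator of mitochondrial genes, had a log2 fold change of 1.17 ± 0.57 (edgeR adjusted p = 0.778). The progesterone receptor gene (listed as PGR) had 0, 0 and 5 counts in DL replicates 1 to 3, against 84, 79 and 56 counts in rest replicates 1 to 3. The fitted log2 value of -5.10 ± 1.61 therefore rests on the 5 counts of DL replicate 3, without which the DL libraries are at 0 and no fold is given, and its adjusted p was 0.412 by edgeR and 0.014 by DESeq2. An estrogen receptor copy (ESR2_ENSDARG00000016454) had a log2 fold change of -1.83 ± 0.65 (edgeR adjusted p = 0.515).

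For sgk2a and sgk2b, the genes with the smallest p in each direction, the most alike patterns were looked up among 7761 named genes of sufficient level. Over the 6 libraries, the log2 CPM of sgk2a was most like that of EVI5 (Pearson r = 0.988), CLOCK_ENSDARG00000011703 (0.985), which encodes a transcription factor of the circadian clock, and setdb1a (0.973). That of sgk2b was most like RWDD1 (0.983), ME2 (0.979) and GCC1 (0.975). With any 1 library left out, the lowest of these values was 0.928. These r describe 6 libraries that share their scaling, and they were the highest of all those compared, so they carry no test.

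Markers of the interrenal gland, the steroid-producing tissue that lies in the zebrafish head kidney and makes cortisol, were unevenly spread over the libraries. Counts were found for 12 of the 13 matched genes in DL replicate 3 and for 9 in rest replicate 3, against 4 and 1 in DL replicates 1 and 2 and 3 each in rest replicates 1 and 2. Their summed level was 5.97, 3.29 and 80.9 CPM in DL replicates 1 to 3, against 2.56, 8.29 and 32.5 CPM in rest replicates 1 to 3. The gene star, which carries cholesterol into mitochondria at the start of steroid synthesis, had 537 counts in DL replicate 3 (50.8 CPM) and 0 in all other libraries, where 0 counts allow a level of up to 0.0913 to 0.508 CPM, counting error only. The steroid hydroxylase gene cyp21a2 and the receptor accessory gene mrap were likewise found in DL replicate 3 alone, with 24 and 9 counts. The enzyme gene hsd3b1 had 43 counts in DL replicate 3 and 105 in rest replicate 3, and the last step to cortisol, cyp11c1, had 28 and 9. The copies of CYP11A1 had 9 and 3 counts in DL replicate 3, fewer than the 21 and 8 in rest replicate 3. The receptor gene for the hormone that drives the gland, mc2r, had 0 counts throughout. Only 1 of the 13 genes, a copy of NR5A1, passed the filter on low counts, so the list was not tested between groups. The levels of the 9 corticosteroid genes in DL replicate 3 are those given above. Under TMM scaling, this library was the highest of the 3 DL libraries for nr3c1 and nr3c2. It was the lowest for hsd11b2, sgk2b and fkbp5, though not for fkbp5 when scaled by library size only. The part of interrenal RNA in these values was not tested.

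**Figure D5:**
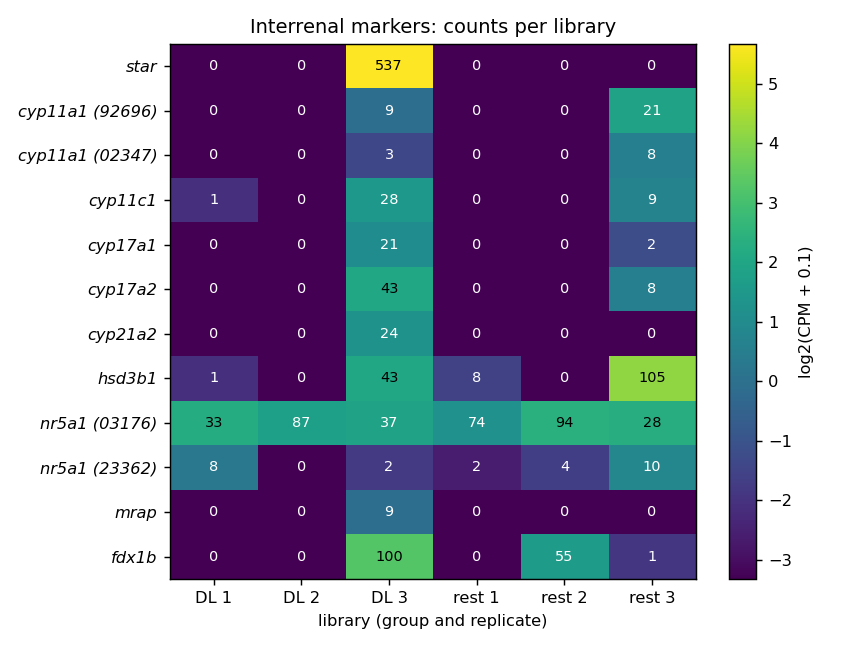
Counts (numbers) and log2(CPM + 0.1) (colour) of the 12 interrenal markers with any counts, by library (x axis); mc2r, with 0 counts throughout, is left out. Summed counts are highest in DL replicate 3 (856), against 192 in rest replicate 3 and 43 to 153 in the others. A copy of nr5a1 has 28 to 94 counts in every library, and star is seen in DL replicate 3 alone, with 537 counts.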

How the data were processed

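The values analysed are expected counts per Ensembl gene, some of them fractional, from 1 table that the authors deposited. Which aligner, counter and build were used is not given in the sources used here. Libraries of the hand-dissected tissue were made with a NuGEN Ovation single-cell kit, per the labels' protocols. Symbols came from a gene identifier table and matched 26121 genes. A symbol with a copy letter that was absent took every identifier of the symbol without it, as for sgk2a. Replicate numbers follow deposition order; whether libraries with neighbouring numbers share a fish is not stated, and they were not used as pairs.

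Counts were rounded, filtered with filterByExpr, scaled by TMM and tested by group in edgeR 4.0.16 with its quasi-likelihood test (R 4.3.3, robust dispersions, adjusted p threshold 0.05). Fold changes are DL minus rest, and each SE is the size of that change divided by the root of its F statistic. Levels are not compared between genes, since no transcript lengths were used. Alternatives used DESeq2 1.42.0, limma 3.58.1 (voom with sample weights), other scalings and filters, and fewer libraries. The fit was also run on simulated data, with larger changes than those of the corticosteroid genes. That run does not show how well changes of their size would be found.

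The members and lists were chosen with earlier results of these data known. From each of 5 pathway lists the rule names up to 2 genes per direction by smallest p and the most abundant one. The text keeps those with an unadjusted p under 0.1, plus hsp90ab1 and fkbp4, a selection made after their values were seen. A few other listed genes are named only for a lack of overlap or for their level within a sum. Reads carry no molecular identifiers, so floors cover counting error only. No strand setting is given, so overlapping genes are uncertain.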

Additional observations from a re-analysis of the deposited data

How the results depend on the processing

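Over all tested genes, edgeR called 11 higher and 0 lower (467 lower at an unadjusted p under 0.05). The counts were 233 and 58 by DESeq2, 6 and 0 by limma-voom, 1 and 0 with library size only, and 99 and 7 without a filter. Leaving out 1 library gave 0 to 51 higher and 0 to 2 lower, leaving out DL replicate 1 and rest replicate 3 together gave 0 and 0, and DESeq2 without DL replicate 3, chosen after the data were seen, gave 302 and 343. Of the 9 corticosteroid genes, 0 were called in either direction under any of the 16 alternatives (adjusted p from 0.25 to 1). Their log2 fold changes kept their sign in 132 of 144 cases, among them all those of sgk1, sgk2a, sgk2b and nedd4l. These cases are refits of the same 6 libraries, so the count is no independent support for a sign. Leaving out 1 library gave ranges that include 0 for nr3c1 (-0.43 to 0.25), nr3c2 (-0.10 to 0.69), fkbp5 (-0.20 to 0.29) and tsc22d3 (-0.66 to 0.069). Without DL replicate 1 and rest replicate 3 together, nr3c1 was at 0.19, hsd11b2 at -0.061, fkbp5 at -0.25 and ppid at 0.045. With library size only, hsd11b2 was at -0.014, fkbp5 at -0.50, fkbp4 at -0.024 and hsp90ab1 at -0.26, against a median over all genes of -0.50, and DESeq2 without DL replicate 3 put nr3c2 at -0.016. The log2 ratio of nr3c2 to nr3c1 counts differed by -0.035 to 0.56 when 1 library was left out and by 0.24 with 0.5 added in place of 1. The cause of these changes was not tested. The labels number the libraries with groups alternating and do not say that neighbours are pairs. The deviations from the group means of same-numbered libraries correlated at 0.018, 0.0966 and 0.0212 over genes. Libraries with different numbers correlated at -0.134 to 0.092, the highest being DL replicate 1 with rest replicate 3. The largest value of all was that of the 2 libraries numbered 2. These values do not settle whether neighbours share a fish. With same-numbered libraries as a block, a fit added after the data were seen, edgeR called 39 genes higher and 0 lower. Among the 39 were hsd20b2 (adjusted p = 0.0487) and esrrb (0.0161) but 0 of the 9. The unadjusted p of sgk2a was then 0.041.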
